A study of Mus musculus with 12 samples.

Results

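The Bcl-2 family of apoptosis regulators was followed at the RNA level through kidney injury, in 10 genes: the pore-forming Bax and Bak1, the anti-apoptotic Bcl2, Bcl2l1 and Mcl1, and the BH3-only Bid, Bad, Bcl2l11, Bbc3 and Pmaip1. The members were chosen by name, and their 24 deposited transcript rows were summed per gene. Values were read as FPKM (fragments scaled by transcript length and library size), although the table names no unit. They are 10 of 13465 genes with a value, and all 10 were among the 12469 genes tested, which needed 1 FPKM or more in 3 or more of the 12 libraries. No member passed through 1 group alone, since Bcl2l11 in WT IRI 13 (0.578 FPKM) was the one value under 1 FPKM among them.

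Bax and Bak assemble in the outer mitochondrial membrane and release cytochrome c, which starts the caspase cascade. Bcl-2, Bcl-xL (the product of Bcl2l1) and Mcl-1 bind and restrain them, and the BH3-only proteins either occupy these guardians or activate Bax and Bak directly. In the kidney the family has been studied as a determinant of tubular cell loss after ischemia. Much of its control lies in protein turnover, phosphorylation, cleavage and location, which RNA does not report.

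Bulk RNA sequencing covered mouse renal cortex in 4 groups of 3 libraries. CKO IRI (libraries 7, 15 and 29) and WT IRI (13, 24 and 49) had 30 min of bilateral renal ischemia and 48 h of reperfusion, and CKO sham (1, 2 and 3) and WT sham (1, 2 and 3) had sham surgery. CKO mice carried a Gpx3 knockout in renal tubular epithelial cells, Gpx3 being the secreted glutathione peroxidase, and WT mice were wild type. The series addresses how tubular Gpx3 affects the injured kidney. The sources used here give neither the Cre driver and the deleted part of Gpx3 nor the strain, sex and age of the animals. The values of a group are listed below in the order of its library numbers. The labels do not say whether libraries came from different animals, and p-values cover the spread among libraries, which may be technical.

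Gpx3, read first as a check of the labels, had 3723, 3025 and 2779 FPKM in CKO IRI, 2788, 3568 and 1075 FPKM in WT IRI, 2501, 3037 and 3299 FPKM in CKO sham and 5664, 4476 and 5371 FPKM in WT sham. It was lower in each CKO sham than in each WT sham library but did not separate the genotypes after IRI, where the library labelled WT IRI 49 had the least of all 12. Gpx3 reads from undeleted exons would not show the knockout, and the genotype after IRI is therefore given as labelled. The tissue was checked with 12 proximal tubule markers, which summed to between 1974 and 11161 FPKM in every library. The extraction text speaks of joint capsule, and of 8 joint markers Comp and Fmod had values, which summed to between 0.650 and 4.69 FPKM, while the other 6 were not analysed here. Summed FPKM per library ran from 391002 to 422328, at an unknown read depth. The median SD per gene was 0.23 in CKO IRI, 0.27 in WT IRI, 0.17 in CKO sham and 0.10 in WT sham (log2), so values varied most among WT IRI libraries.

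After ischemia-reperfusion no member passed the test in kidneys labelled CKO, whereas 5 of the 10 rose and none fell in kidneys labelled WT. The difference between the CKO and WT changes was not called for any member. The 5 in WT were Bbc3 (Puma), Bcl2l1, Bak1, Bax and Mcl1, which span the 3 roles in the family: both pore formers, the guardians Bcl-xL and Mcl-1, and 1 BH3-only gene. The largest rise was that of Bbc3, whose mean was 5.77 times the sham mean, and the other 4 means were 1.65 to 2.87 times sham. At a limma adjusted p under 0.05 (Benjamini-Hochberg), 5.7% of all genes tested were called higher and 1.48% lower in the CKO comparison. In the WT comparison 25.1% were called higher and 11.9% lower. The median WT change on the log2(FPKM + 1) scale was 0.63 over the members and 0.12 over all genes tested. This scale understates the change of low genes such as Bbc3. The median over all genes is a matter of scaling: it was -0.02 after quantile normalization and 0.02 after median-ratio scaling, where calls split into 2205 higher and 2172 lower and into 2459 and 2010, against 3125 and 1483 as deposited. The 5 rises were called on each of these scales, and Bid was then also called lower (adjusted p = 0.0347 after quantile normalization and 0.0371 after median-ratio scaling). In bulk tissue, fewer cells of a type and less RNA per cell cannot be told apart.

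**Figure D1:**
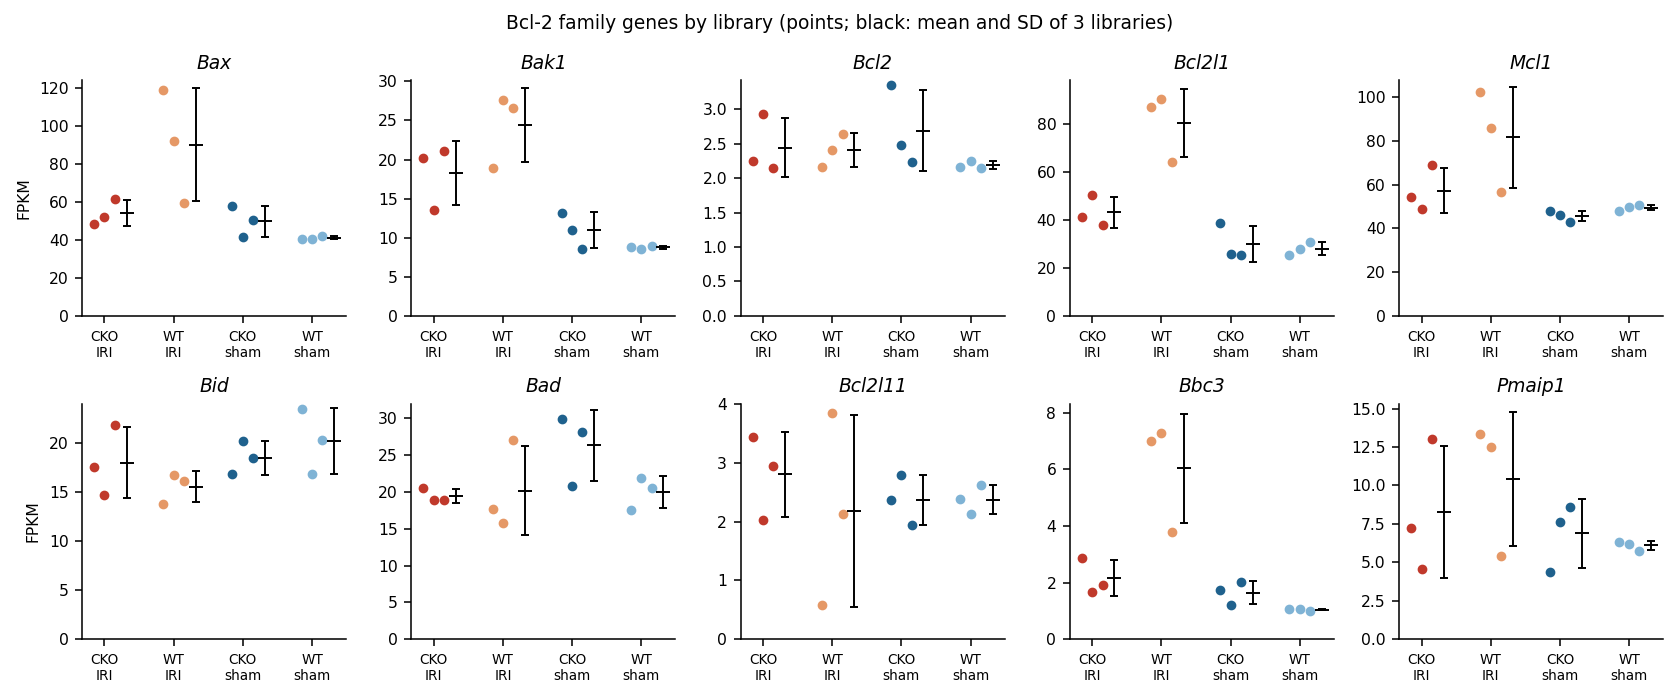
FPKM of each of the 10 genes in the 12 libraries (vertical axes, each from 0), with CKO IRI, WT IRI, CKO sham and WT sham from left to right. Points are libraries and black marks the mean and SD of 3; the WT IRI points of Bax, Bak1, Bcl2l1, Mcl1 and Bbc3 lie above all WT sham points.

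The promoter windows of Bbc3, Bax and Mcl1 are shown because these genes rose in kidneys labelled WT and the 250 bases before the start site hold no annotated exon. For Bbc3 this is the first of 3 RefSeq start sites. The letters come from RefSeq (GRCm38.p6) and run 5′ to 3′ on the gene's strand. Capitals mark matches, on either strand and with overlaps allowed, to a GC box (GGGCGG), an E-box (CACGTG), an AP-1 motif (TGANTCA), a STAT motif (TTCNNNGAA), a CCAAT box (CCAAT) or a p53 half-site.
Bbc3, chr7:16309333-16309582, plus strand: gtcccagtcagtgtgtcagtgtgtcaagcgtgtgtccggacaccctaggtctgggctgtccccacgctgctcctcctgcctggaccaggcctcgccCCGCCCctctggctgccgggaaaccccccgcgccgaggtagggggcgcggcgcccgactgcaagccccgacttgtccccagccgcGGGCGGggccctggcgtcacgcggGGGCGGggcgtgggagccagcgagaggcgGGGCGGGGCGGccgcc
Bax, chr7:45466899-45467148, minus strand: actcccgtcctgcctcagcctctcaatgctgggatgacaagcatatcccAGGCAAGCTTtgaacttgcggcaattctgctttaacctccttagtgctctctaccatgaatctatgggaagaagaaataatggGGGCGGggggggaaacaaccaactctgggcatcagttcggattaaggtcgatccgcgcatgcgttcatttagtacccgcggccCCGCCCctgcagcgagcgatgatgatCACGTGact
Mcl1, chr3:95658471-95658720, plus strand: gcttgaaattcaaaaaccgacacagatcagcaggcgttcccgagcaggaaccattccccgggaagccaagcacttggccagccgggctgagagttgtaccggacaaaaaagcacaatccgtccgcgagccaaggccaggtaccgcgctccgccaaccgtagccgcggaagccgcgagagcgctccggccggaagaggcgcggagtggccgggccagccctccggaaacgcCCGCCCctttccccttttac
The printed Bbc3 window held 5 GC boxes, that of Bax 2 and that of Mcl1 1. The Bbc3 window lies inside the GENCODE span of the gene, which begins at 16308393. Of the other Bbc3 start sites, 1 had a window with 1 GC box. The other had 7 GC boxes, 1 E-box and 1 CCAAT box. The Bax window also held 1 E-box, which begins 9 bases before the start site, and 1 p53 half-site, which begins 201 bases before it. Of 32851 start sites in the RefSeq table, 32.7% had a GC box in a window of this length, 6.02% the E-box, 6.75% the AP-1 motif, 7.02% the STAT motif, 33.8% a CCAAT box and 7.13% a p53 half-site. Windows of Bcl2l1 (3 start sites) and Bak1 (1) held none of these motifs and are not printed because they overlap annotated exons. A match is only a run of letters, and binding was not measured.

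Bax (chromosome 7, 45461697 to 45466898, minus strand, GRCm38) encodes the cytosolic pore former that moves to mitochondria on activation. It had 48.0, 52.2 and 61.7 FPKM in CKO IRI, 119, 91.9 and 59.3 FPKM in WT IRI, 57.7, 41.5 and 50.3 FPKM in CKO sham and 40.6, 40.7 and 41.9 FPKM in WT sham. CKO IRI and CKO sham overlapped, whereas every WT IRI library exceeded every WT sham library, with WT IRI 49 well below the other two. The CKO change was 0.12 (log2, SE 0.22, limma adjusted p = 0.784). The WT change was 1.06 (SE 0.22, limma adjusted p = 0.00478), and its exact two-sided permutation p was 0.1, the smallest that 3 against 3 allows.

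Bak1 (chromosome 17, 27019810 to 27029009, minus strand) encodes Bak, the pore former that resides in the mitochondrial membrane. Its values were 20.2, 13.6 and 21.1 FPKM in CKO IRI, 19.0, 27.7 and 26.5 FPKM in WT IRI, 13.2, 11.0 and 8.61 FPKM in CKO sham and 8.76, 8.57 and 8.97 FPKM in WT sham. Libraries after IRI lay above sham libraries in both genotypes, by a narrow margin in CKO (13.6 in CKO IRI 15 against 13.2 in CKO sham 1). The CKO change of 0.68 (log2, SE 0.20) did not pass at a limma adjusted p of 0.0681, but did with array weights (0.0014), without CKO IRI 15 (0.0191) and without WT IRI 13 (0.0455). The WT change was 1.36 (SE 0.20, limma adjusted p = 0.000939). Ggnbp1 lies across Bak1 on the opposite strand and had lower means after IRI (11.1 FPKM in CKO IRI, 17.0 in WT IRI, 17.9 in CKO sham and 22.2 in WT sham, for the larger of its 2 annotated genes). The libraries mark strand per the labels, but the strand setting of the quantification is not stated there. The same limit holds for Bid and Bad, which also overlap genes on the opposite strand. Bcl2l13, across Bid, averaged 9.84 FPKM in CKO IRI, 7.19 in WT IRI, 7.50 in CKO sham and 9.64 in WT sham. Gpr137, across Bad, averaged 22.8, 36.6, 27.4 and 23.8 FPKM in the same order.

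Bcl2l1 (chromosome 2, 152780668 to 152831728, minus strand) encodes Bcl-xL, which holds Bax off the membrane. It had 41.3, 50.5 and 37.9 FPKM in CKO IRI, 87.0, 90.3 and 64.3 FPKM in WT IRI, 38.8, 25.8 and 25.3 FPKM in CKO sham and 25.3, 28.1 and 30.9 FPKM in WT sham. All WT IRI libraries were above all libraries of the other 3 groups. In CKO the groups overlapped through CKO sham 1, and the change was 0.53 (log2, SE 0.19, limma adjusted p = 0.122). It passed with array weights (0.0050) and without CKO sham 1 (0.0484). The WT change was 1.48 (SE 0.19, limma adjusted p = 0.000473).

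Mcl1 (chromosome 3, 95658788 to 95663176, plus strand) encodes the short-lived guardian Mcl-1. Its values were 54.3, 48.6 and 69.0 FPKM in CKO IRI, 102, 85.8 and 56.8 FPKM in WT IRI, 47.8, 46.2 and 43.0 FPKM in CKO sham and 48.2, 49.7 and 50.6 FPKM in WT sham. Both IRI groups lay above their sham groups without overlap, although the gap was small in CKO (48.6 in CKO IRI 15 against 47.8 in CKO sham 1) and wider in WT (56.8 in WT IRI 49 against 50.6 in WT sham 3). The CKO change was 0.31 (log2, SE 0.20, limma adjusted p = 0.374) and the WT change 0.67 (SE 0.20, adjusted p = 0.0218). The WT call was lost with only the groups compared fitted (0.0570), without WT IRI 13 (0.0752) or 24 (0.0636), and without WT sham 1 (0.0636), 2 (0.0588) or 3 (0.0553).

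Bcl2 (chromosome 1, 106538178 to 106714274, minus strand), the founding member, was among the lowest of the 10, with 2.25, 2.93 and 2.15 FPKM in CKO IRI, 2.16, 2.41 and 2.65 FPKM in WT IRI, 3.35, 2.48 and 2.23 FPKM in CKO sham and 2.16, 2.25 and 2.15 FPKM in WT sham. The 4 groups overlapped. Its changes with IRI were -0.09 (log2, SE 0.15, limma adjusted p = 0.738) in CKO and 0.09 (SE 0.15, adjusted p = 0.646) in WT. Mcl1 and Bcl2l1 thus made up nearly all of the summed RNA of the 3 guardians followed here. In WT sham they averaged 49.5 ± 1.22 and 28.1 ± 2.81 FPKM, against 2.19 ± 0.0563 FPKM for Bcl2 (SD, n = 3). Bcl2l2, another anti-apoptotic gene of the family and not a member here, had 10.4, 10.6 and 21.3 FPKM in WT sham.

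Bbc3 (chromosome 7, 16308393 to 16318205, plus strand) encodes Puma, a BH3-only protein that binds all the guardians and whose gene is a textbook p53 target. It had 2.89, 1.69 and 1.93 FPKM in CKO IRI, 7.01, 7.28 and 3.79 FPKM in WT IRI, 1.73, 1.20 and 2.02 FPKM in CKO sham and 1.06, 1.06 and 1.01 FPKM in WT sham, where it had the lowest mean of the 10. CKO IRI overlapped CKO sham, and each WT IRI library exceeded each of the other 9. The CKO change was 0.25 (log2, SE 0.23, limma adjusted p = 0.532) and the WT change 1.74 (SE 0.23, adjusted p = 0.000445).

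Pmaip1 (chromosome 18, 66458533 to 66465565, plus strand) encodes Noxa, the partner of Mcl-1 and another p53 target. It had 7.24, 4.58 and 13.01 FPKM in CKO IRI, 13.4, 12.5 and 5.42 FPKM in WT IRI, 4.37, 7.65 and 8.62 FPKM in CKO sham and 6.34, 6.21 and 5.77 FPKM in WT sham. WT IRI 13 and 24 were above WT sham and WT IRI 49 was below it, so the groups overlapped. The CKO change was 0.17 (log2, SE 0.37, limma adjusted p = 0.816). The WT change was 0.60 (SE 0.37, limma adjusted p = 0.231), and it passed with array weights (0.0484) and without WT IRI 49 (0.97, adjusted p = 0.0469).

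Bid, Bad and Bcl2l11, the remaining BH3-only genes, were not called in either genotype. Bid, which caspase-8 cleaves to link death receptors to mitochondria, had 17.5, 14.6 and 21.8 FPKM in CKO IRI, 13.8, 16.7 and 16.2 FPKM in WT IRI, 16.8, 20.2 and 18.4 FPKM in CKO sham and 23.4, 16.8 and 20.3 FPKM in WT sham. It was lower in each WT IRI than in each WT sham library, by little at the edge (16.7 in WT IRI 24 against 16.8 in WT sham 2), with a change of -0.35 (log2, SE 0.17, limma adjusted p = 0.121). Bad, which 14-3-3 proteins hold in the cytosol when it is phosphorylated, had 20.6, 18.9 and 18.9 FPKM in CKO IRI, 17.7, 15.8 and 27.0 FPKM in WT IRI, 29.9, 20.8 and 28.2 FPKM in CKO sham and 17.6, 21.8 and 20.6 FPKM in WT sham. It was lower in each CKO IRI than in each CKO sham library, with a change of -0.40 (SE 0.20, adjusted p = 0.242), and did not separate the WT groups (-0.02, SE 0.20, adjusted p = 0.950). Bcl2l11 (Bim), which can engage all guardians and Bax, had 3.43, 2.02 and 2.95 FPKM in CKO IRI, 0.578, 3.84 and 2.13 FPKM in WT IRI, 2.36, 2.79 and 1.94 FPKM in CKO sham and 2.38, 2.13 and 2.62 FPKM in WT sham. The lowest and highest Bcl2l11 values of the study were both in WT IRI, and its changes were 0.17 (SE 0.33, adjusted p = 0.797) in CKO and -0.23 (SE 0.33, adjusted p = 0.617) in WT.

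In kidneys labelled CKO no member was called after IRI by limma, where 5.7% of all genes tested were called higher and 1.48% lower. At an unadjusted p under 0.05 there were 2, Bak1 and Bcl2l1, against 24.1% of all genes, and with array weights the same 2 passed the adjusted threshold, as did 28.5% of all genes. The median change was 0.17 over the members and 0.08 over all genes. Of the 10 members, Bak1 and Mcl1 were higher and Bad was lower in every CKO IRI than in every CKO sham library, against 21.4% and 10.1% of all genes that were higher or lower without overlap. In WT these counts were 5 higher and 1 lower (Bid), against 35.2% and 19.5% of all genes.

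**Figure D2:**
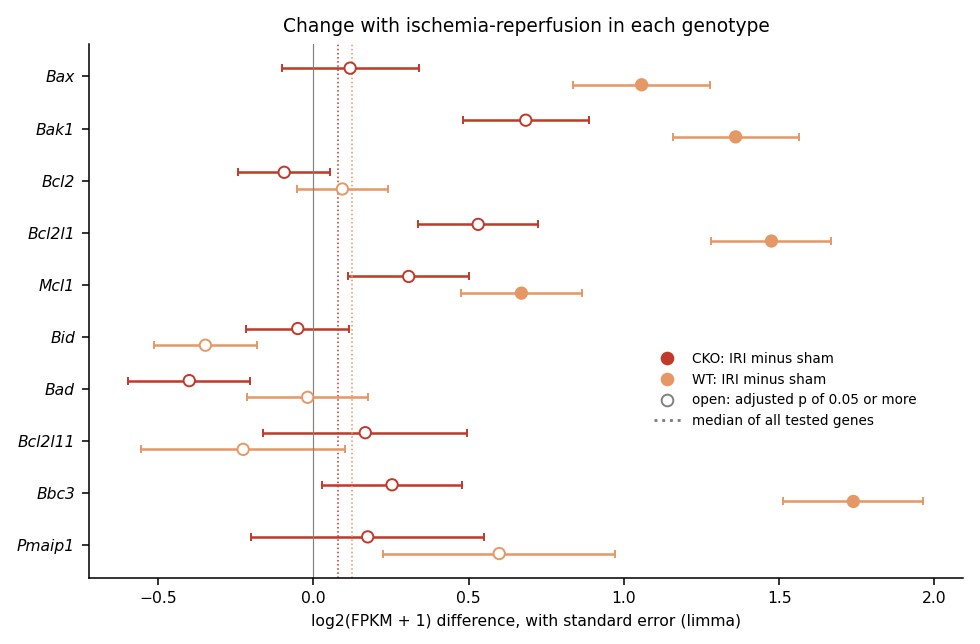
Change with ischemia-reperfusion of each gene, as the IRI minus sham difference in log2(FPKM + 1) with its limma standard error (horizontal axis), for CKO (upper point of each pair) and WT (lower point). Filled points have an adjusted p under 0.05, which holds for 5 WT points and no CKO point; dotted lines are the medians of all genes tested, 0.08 in CKO and 0.12 in WT.

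The difference between the 2 changes was itself not called for any member by limma. The interaction (CKO change minus WT change) was -1.49 for Bbc3 (log2, SE 0.32, unadjusted p = 0.000736, adjusted p = 0.176), -0.94 for Bcl2l1 (SE 0.27, adjusted p = 0.188), -0.94 for Bax (SE 0.31, adjusted p = 0.203) and -0.68 for Bak1 (SE 0.29, adjusted p = 0.257). These 4 had an unadjusted p under 0.05, which 17.9% of all genes also had, whereas 0.016% of all genes passed the adjusted threshold. The result turned on WT IRI 49. Without that library Bbc3 (-1.74, adjusted p = 0.0207), Bax (-1.21, adjusted p = 0.0321) and Bcl2l1 (-1.10, adjusted p = 0.0492) were called, as were 4.68% of all genes, and the same 3 were called with array weights, as were 6.74% of all genes. With CKO sham 1 left out as well, Bbc3 remained called, among 1.2% of all genes. A smaller IRI change of these genes in CKO than in WT was thus past the threshold only in fits that left out or down-weighted libraries.

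Compared directly after IRI, no member differed between libraries labelled CKO and WT at an adjusted p under 0.05 in limma, and neither did any other gene (0% of 12469 called; 1302, or 10.4%, at an unadjusted p under 0.05). Bbc3 and Bcl2l1 were lower in each CKO IRI than in each WT IRI library, where 11.5% of all genes were lower and 7.11% higher without overlap. Bbc3 averaged 2.17 ± 0.633 FPKM in CKO IRI and 6.03 ± 1.94 FPKM in WT IRI (SD, n = 3 each). The log2 difference was -1.13 (SE 0.28, limma unadjusted p = 0.00464, adjusted p = 0.476). Bcl2l1 averaged 43.2 ± 6.55 FPKM in CKO IRI and 80.5 ± 14.2 FPKM in WT IRI, a difference of -0.88 (SE 0.20, limma unadjusted p = 0.00323, adjusted p = 0.476). Bax, at -0.68 (SE 0.27, limma unadjusted p = 0.0397, adjusted p = 0.476), was the third of 3 members with an unadjusted p under 0.05.

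In sham kidneys no member differed between genotypes in limma (0.0882% of all genes called), and 1, Bbc3, had an unadjusted p under 0.05, against 16.2% of all genes. Bbc3 averaged 1.65 ± 0.416 FPKM in CKO sham and 1.04 ± 0.0261 FPKM in WT sham (SD, n = 3 each), without overlap. The log2 difference was 0.36 (SE 0.13, limma adjusted p = 0.283). Mcl1 was the other member whose groups did not overlap, at 45.7 ± 2.47 FPKM in CKO sham and 49.5 ± 1.22 FPKM in WT sham (-0.11, SE 0.07, adjusted p = 0.408). Of all genes, 15% were higher and 13.4% lower in CKO sham without overlap. These genotype fits used only the 6 libraries compared, and the 4 comparisons within and between groups share libraries.

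Levels can be ordered within each group, since FPKM is per length. Mcl1, Bax and Bcl2l1 held the first 3 places in all 4 groups and Bbc3, Bcl2 and Bcl2l11 the last 3. Bbc3 was last in CKO IRI, CKO sham and WT sham and stood above Bcl2 and Bcl2l11 in WT IRI. In WT IRI the means ran from Bax (90.0 ± 29.8 FPKM), Mcl1 (81.6 ± 23.0) and Bcl2l1 (80.5 ± 14.2), which overlapped, over Bak1 (24.4 ± 4.72), Bad (20.2 ± 6.01) and Bid (15.6 ± 1.57) to Pmaip1 (10.4 ± 4.35), Bbc3 (6.03 ± 1.94), Bcl2 (2.41 ± 0.243) and Bcl2l11 (2.18 ± 1.63). In WT sham the order was Mcl1 (49.5 FPKM), Bax (41.1), Bcl2l1 (28.1), Bid (20.2), Bad (20.0), Bak1 (8.77), Pmaip1 (6.11), Bcl2l11 (2.38), Bcl2 (2.19) and Bbc3 (1.04), with overlap only between Bid and Bad and between Bcl2l11 and Bcl2. Bak1 thus stood above Bid and Bad in WT IRI, where it overlapped Bad, and below both in the sham groups.

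In kidneys labelled WT, the sums of the member pore formers and of the member guardians were both higher after IRI. The ratio of these sums lay in a narrow range, but it covers the members alone. Bok, a relative of Bax and Bak, is outside it, with 41.4, 22.7 and 29.6 FPKM in WT IRI and 3.57, 5.13 and 3.80 FPKM in WT sham. Bcl2l2, another anti-apoptotic gene, is outside it as well. Bax plus Bak1 over the sum of Bcl2, Bcl2l1 and Mcl1 was 0.698, 0.644 and 0.759 in CKO IRI, 0.721, 0.670 and 0.694 in WT IRI, 0.788, 0.705 and 0.835 in CKO sham and 0.653, 0.616 and 0.609 in WT sham. The WT IRI ratios were all above the WT sham ratios, and the CKO groups overlapped. Bax over Bcl2, often used as an index of apoptotic tendency, was 21.4, 17.8 and 28.7 in CKO IRI, 55.0, 38.1 and 22.4 in WT IRI, 17.2, 16.7 and 22.6 in CKO sham and 18.8, 18.1 and 19.5 in WT sham. It was highest in WT IRI 13 and 24, but its denominator was a gene of about 2 FPKM that held a small part of the guardian RNA. Bax over Bcl2l1 had a lower mean in WT IRI than in WT sham, with 1.37, 1.02 and 0.922 in WT IRI and 1.61, 1.45 and 1.36 in WT sham, and these groups overlapped.

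The summed level of the 5 BH3-only genes lay between 41.9 and 59.2 FPKM in all 12 libraries. It was 51.6, 41.9 and 58.6 FPKM in CKO IRI, 52.4, 56.1 and 54.5 FPKM in WT IRI, 55.2, 52.7 and 59.2 FPKM in CKO sham and 50.8, 48.0 and 50.3 FPKM in WT sham. Bid and Bad made up most of it, and Bbc3 a small part. The sum of Bcl2, Bcl2l1 and Mcl1 was 97.8, 102 and 109 FPKM in CKO IRI, 191, 178 and 124 FPKM in WT IRI, 90.0, 74.5 and 70.5 FPKM in CKO sham and 75.6, 80.0 and 83.6 FPKM in WT sham. The ratio of the BH3-only sum to this guardian sum therefore had its lowest mean in WT IRI. It was 0.274, 0.314 and 0.441 in WT IRI, against 0.528, 0.410 and 0.538 in CKO IRI, 0.613, 0.707 and 0.839 in CKO sham and 0.672, 0.601 and 0.601 in WT sham. WT IRI and CKO IRI overlapped (0.441 in WT IRI 49 against 0.410 in CKO IRI 15). These sums and ratios are RNA levels of the members alone and were not tested. The BH3-only genes Bik and Bmf and the anti-apoptotic Bcl2l2 are not in them.

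The single transcripts were tested as well. Of the 24 deposited rows, 19 were tested, and 5 were called higher after IRI in WT and none lower by limma over all transcripts, of which 12.7% were called higher and 6.95% lower. They were Bbc3-201, Bak1-202, Bcl2l1-202, Bax-201 and Mcl1-201, the main row of each gene. Bbc3, Bak1 and Mcl1 have 1 deposited row each, so their transcript changes are the gene changes themselves. Of the called genes, only Bcl2l1 and Bax had rows that could differ from the gene sum. In CKO none was called (1.77% of all transcripts higher, 0.374% lower), while Bak1-202 and Bcl2l1-202 had an unadjusted p under 0.05. Bcl2l1-202 rose by 1.73 in WT (log2, SE 0.23, limma adjusted p = 0.00157), with 76.3, 81.5 and 56.0 FPKM in WT IRI and 19.1, 20.4 and 22.3 FPKM in WT sham, and it held 88.4% of the Bcl2l1 sum in WT IRI and 73.4% in WT sham. Mcl1-201 passed narrowly (adjusted p = 0.0408) and did not pass in 9 of the 12 fits that left out a library.

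Within Bax, 2 transcripts behaved differently among the WT IRI libraries. Bax-201 had 48.7, 45.4 and 46.2 FPKM in WT IRI and 22.1, 22.0 and 30.1 FPKM in WT sham, a rise of 0.91 (log2, SE 0.18, limma adjusted p = 0.00880). Bax-203 had 64.4, 38.5 and 8.89 FPKM in WT IRI and 13.3, 13.95 and 8.80 FPKM in WT sham. Bax-201 was thus nearly equal in the 3 WT IRI libraries, and their Bax totals differed mainly through Bax-203, whose change of 1.20 was not called (SE 0.62, adjusted p = 0.196) except without that library.

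Other rows swapped between libraries. Bcl2l11-205 had 3.23, 0.01 and 2.68 FPKM in CKO IRI and 0.01, 3.15 and 0.00 FPKM in WT IRI. In CKO IRI 15 and WT IRI 49, where it was near 0 or at 0, the value lay in Bcl2l11-203, at 2.01 and 2.13 FPKM. In WT IRI 13 Bcl2l11-203 was low as well (0.57 FPKM), and the gene sum of 0.578 FPKM was the lowest of all libraries. Bad-202 ranged from 1.05 FPKM in CKO sham 1 to 11.0 FPKM in CKO sham 3, where Bad-201 had 26.1 and 15.9 FPKM. How reads are split between similar transcripts is estimated, and a value at 0 can be a failed estimate. The gene sums are therefore the firmer values where rows swap, but not for Bcl2l11 in WT IRI 13, where both rows were low.

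**Figure D3:**
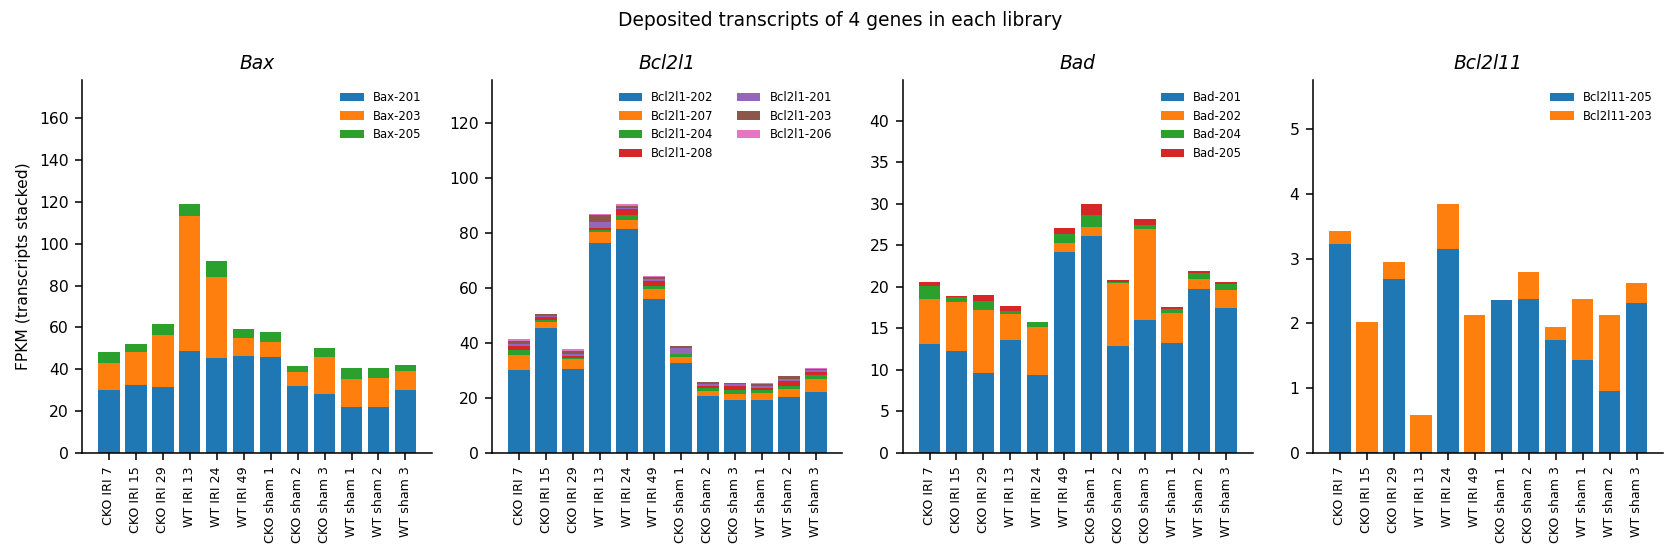
FPKM of the deposited transcripts of Bax, Bcl2l1, Bad and Bcl2l11 (vertical axes, stacked bars) in each of the 12 libraries, CKO IRI first and WT sham last. Bax-203 varies from 8.89 to 64.4 FPKM among WT IRI libraries at a nearly constant Bax-201, and Bcl2l11-205 is near 0 in CKO IRI 15, WT IRI 13 and WT IRI 49.

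The libraries after IRI differed in tubular markers as well. The 12 proximal tubule genes summed to 5348, 7727 and 3092 FPKM in CKO IRI, 1974, 2235 and 5536 FPKM in WT IRI, 11161, 10015 and 9576 FPKM in CKO sham and 9389, 9321 and 9186 FPKM in WT sham. All 12 were called lower after IRI in WT and 1, Slc5a2, in CKO, against 11.9% and 1.48% of all genes. Sums of 8 injury genes (Havcr1, Lcn2 and others) were 4577, 2543 and 6705 FPKM in CKO IRI, 5891, 6200.1 and 4259.8 FPKM in WT IRI, and between 1029 and 1219.8 FPKM in the sham libraries. WT IRI 13 and 24, with the least proximal tubule RNA, had the highest Bax, Bcl2l1, Mcl1 and Bbc3, and WT IRI 49 had less of all 4. Bak1, also called in WT, did not follow this order. It was lowest in WT IRI 13 (19.0 FPKM), with 27.7 FPKM in WT IRI 24 and 26.5 FPKM in WT IRI 49. CKO IRI 29 had the least proximal tubule RNA of the CKO IRI libraries and the highest injury sum, with 61.7 FPKM of Bax and 69.0 FPKM of Mcl1, both the highest in CKO IRI and above WT IRI 49, and 37.9 FPKM of Bcl2l1 and 1.93 FPKM of Bbc3, both under each WT IRI library. Fibroblast sums (8 genes) were 182, 201 and 297 FPKM in CKO IRI, 424, 149 and 411 FPKM in WT IRI and 54.9 to 96.3 FPKM in sham, macrophage sums (10 genes) 170.1 to 254 FPKM in CKO IRI, 162 to 333 FPKM in WT IRI and 111 to 207 FPKM in sham, and 10 proliferation genes summed to 201 to 348 FPKM in CKO IRI, 389 to 479 FPKM in WT IRI and 12.4 to 18.0 FPKM in sham. Endothelial sums (8 genes) were 61.0 to 163 FPKM in CKO IRI, 70.5 to 147 FPKM in WT IRI and 191 to 300 FPKM in sham, and loop, distal and collecting duct sums (10 genes) 1197 to 2692 FPKM in CKO IRI, 1444 to 2097 FPKM in WT IRI and 1743 to 2170.1 FPKM in sham. Of 8 neutrophil genes 3 had values, which summed to 8.40 to 20.4 FPKM in CKO IRI, 10.02 to 22.1 FPKM in WT IRI and 0.807 to 3.78 FPKM in sham. Of 12 lymphocyte genes 6 had values, which summed to 0.591 to 2.2 FPKM in CKO IRI, 0.985 to 4.57 FPKM in WT IRI and 3.20 to 7.87 FPKM in sham. The part of these shifts in the member results was not tested.

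**Figure D4:**
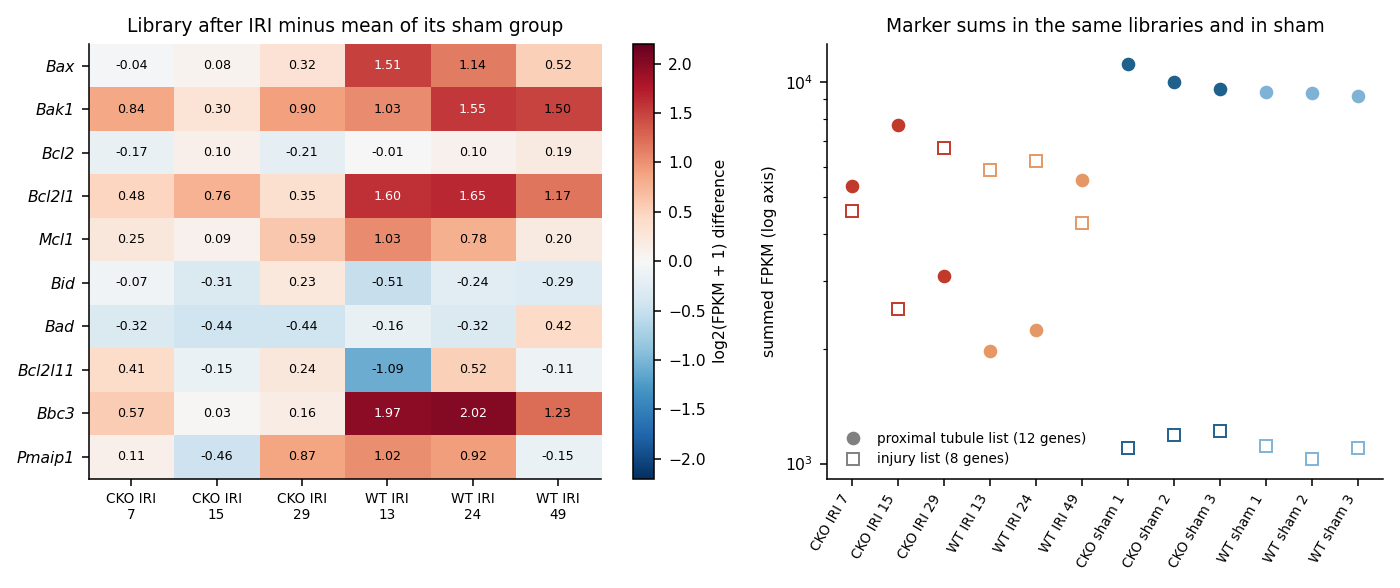
Left, log2(FPKM + 1) of each gene in each library after IRI minus the mean of its own sham group, as colour and number. Right, summed FPKM (log axis) of 12 proximal tubule genes (filled circles) and 8 injury genes (open squares) in all 12 libraries, coloured by group; WT IRI 13 and 24 have the lowest circles, and Bbc3 is 1.97 and 2.02 above sham in them.

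Genes with the most similar pattern over the 12 libraries were sought by the root mean square difference in log2(FPKM + 1) after the WT sham mean of each gene was subtracted, among 12091 genes. Nearest to Bax were Ccdc124 (0.10), Tbcb (0.12) and Rplp2 (0.12), and nearest to Mcl1 were Hspbap1 (0.08), Maz (0.09) and Ddx27 (0.10). Nearest to Bak1 were Pafah1b3 (0.15), Dtymk (0.17) and Actb (0.17), and to Bcl2l1 Fam171a2 (0.17), Klc3 (0.18) and Icam1 (0.18). Bbc3 had no neighbour closer than 0.24, the value of Cdh24, Gjb5 and Styk1. Among the members themselves, Bcl2 and Bad were closest (0.23), followed by Bax and Mcl1 (0.31), Mcl1 and Pmaip1 (0.32) and Bcl2l1 and Bbc3 (0.32). These are descriptions over libraries of shared groups and carry no test.

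Of 12 other Bcl-2 family genes tested, 1, Bok, rose after IRI in CKO, where the list had a median change of -0.10 (log2). In WT 5 rose (Bok, Bcl2l12, Bcl2a1a, Bik and Bcl2a1d) and 1, Bnip3, fell, with a median of 0.57. Of all genes tested, 5.7% were called higher and 1.48% lower in CKO (median 0.08), and 25.1% and 11.9% in WT (median 0.12). The counts and medians of all 6 lists are to be read against these. Bok, which encodes a relative of Bax and Bak, had 15.3, 15.8 and 22.7 FPKM in CKO IRI, 41.4, 22.7 and 29.6 FPKM in WT IRI, 8.96, 4.98 and 5.41 FPKM in CKO sham and 3.57, 5.13 and 3.80 FPKM in WT sham. Its changes were 1.36 in CKO (SE 0.26, limma adjusted p = 0.0104, lost without CKO sham 2 or 3) and 2.61 in WT (SE 0.26, adjusted p = 8.17e-05). Bcl2l12 rose by 1.09 and the mitophagy receptor gene Bnip3 fell by 0.64 in WT, to 64.6 FPKM in WT IRI, against 100.4 FPKM in WT sham. Bcl2a1a (0.53), Bik (0.61) and Bcl2a1d (0.67) passed narrowly, and Bcl2a1a and Bcl2a1d are near-identical copies at about 1 FPKM that can share reads. The WT count of 5 was 3 without CKO IRI 7, CKO sham 2 or WT sham 1, and it was 2 when CKO IRI 29, WT IRI 13 or either of WT sham 2 and 3 was left out. It was also 3 after median-ratio scaling and 2, with 2 lower, after quantile normalization.

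Of 6 inhibitors of apoptosis and their antagonists, Birc3 (1.37) and Birc2 (1.34), which encode ubiquitin ligases of TNF receptor signalling, rose in WT (log2 medians 0.30 in CKO and 0.66 in WT). None was called in CKO by limma, where Birc3 alone had an unadjusted p under 0.05, while array weights called 3, and 1 was called without CKO IRI 15, WT IRI 24 or WT IRI 49.

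Of 9 death receptor genes, 2 rose in CKO, Tnfrsf12a (2.11, SE 0.38, limma adjusted p = 0.00765), the receptor of TWEAK, and Tnfrsf1a (0.54, adjusted p = 0.0392), which encodes TNF receptor 1. In WT 4 rose: Tnfrsf12a (2.65), Tnfrsf10b (1.08), the mouse TRAIL receptor, Tradd (0.99), an adaptor of TNF receptor 1, and Tnfrsf1a (0.80). The CKO count was 1 without CKO IRI 7 or 29, without any 1 of the 6 sham libraries and after each of the rescalings (quantile and median-ratio). Without CKO IRI 15 there were 3 higher and 1 lower, and with array weights 5 higher and 1 lower. Medians of this list were 0.25 in CKO and 0.26 in WT.

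A list of 11 tested genes held transcriptional regulators of BH3-only genes together with related genes such as Cdkn1a, which is not one. In CKO Cdkn1a and E2f1 rose and Ddit3 fell. In WT 4 rose (Cdkn1a, E2f1, Trp53 and Atf4) and Foxo1 fell (medians -0.16 in CKO and 0.45 in WT). Cdkn1a, the p53 target that encodes p21, had 57.1, 32.6 and 53.9 FPKM in CKO IRI, 127, 97.4 and 23.7 FPKM in WT IRI, 9.10, 5.20 and 5.72 FPKM in CKO sham and 7.40, 7.34 and 8.45 FPKM in WT sham. It was above sham in all 6 libraries after IRI, with changes of 2.66 in CKO (SE 0.50, limma adjusted p = 0.0101) and 2.96 in WT (SE 0.50, adjusted p = 0.00177). Of Bbc3 and Pmaip1, textbook p53 targets too, neither was called in CKO, and only Bbc3 was called in WT. Trp53, which encodes p53, had a change of 0.72 in CKO (SE 0.24, limma adjusted p = 0.0963) and rose by 1.33 in WT (SE 0.24, adjusted p = 0.00245). Ddit3, the gene of the stress factor CHOP, fell by 0.74 in CKO (adjusted p = 0.0278), a call lost without CKO IRI 7 or any 1 CKO sham library.

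Of 10 genes for Mcl-1 stability and for the 14-3-3 proteins that hold Bad, 3 rose in CKO: Ywhah (1.16), Ywhaz (0.74) and Ywhag (0.60). In WT 5 rose: Ywhah (1.64), Ywhag (0.80), Ywhae (0.49), Ywhaz (0.48) and Ywhab (0.36), all of them 14-3-3 genes. Ywhah had 108, 83.4 and 153 FPKM in CKO IRI, 158, 178 and 121 FPKM in WT IRI and 46.8 to 54.5 FPKM in the sham libraries, so it separated IRI from sham in both genotypes. The CKO count was 1 without CKO IRI 7 or 29 or CKO sham 1 or 3, and the WT count 3 without WT IRI 24 or any 1 WT sham library. With array weights the counts were 5 in CKO and 8 in WT, and after median-ratio scaling the WT count was 3. Medians were 0.24 in CKO and 0.44 in WT. Of 9 genes listed as outer membrane partners, not all of which encode outer membrane proteins, Vdac3 rose (0.34) in WT. Opa1, whose product lies in the inner membrane and keeps the cristae closed, fell (-0.71) in WT. None was called in CKO by limma (0 at an unadjusted p under 0.05). The Vdac3 call was lost without WT IRI 13 or 24 or WT sham 2 or 3. The WT counts were 0 higher and 3 lower after median-ratio scaling, 2 and 3 after quantile normalization, 1 and 3 without WT IRI 49 or with array weights, 2 and 2 without CKO IRI 15 and 1 and 2 without CKO IRI 29. Between genotypes and in the interaction limma called no gene of these 6 lists. Of their 57 tested genes, 8 had an unadjusted p under 0.05 after IRI (10.4% of all genes), 9 in sham (16.2% of all genes) and 13 in the interaction (17.9% of all genes).

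**Figure D5:**
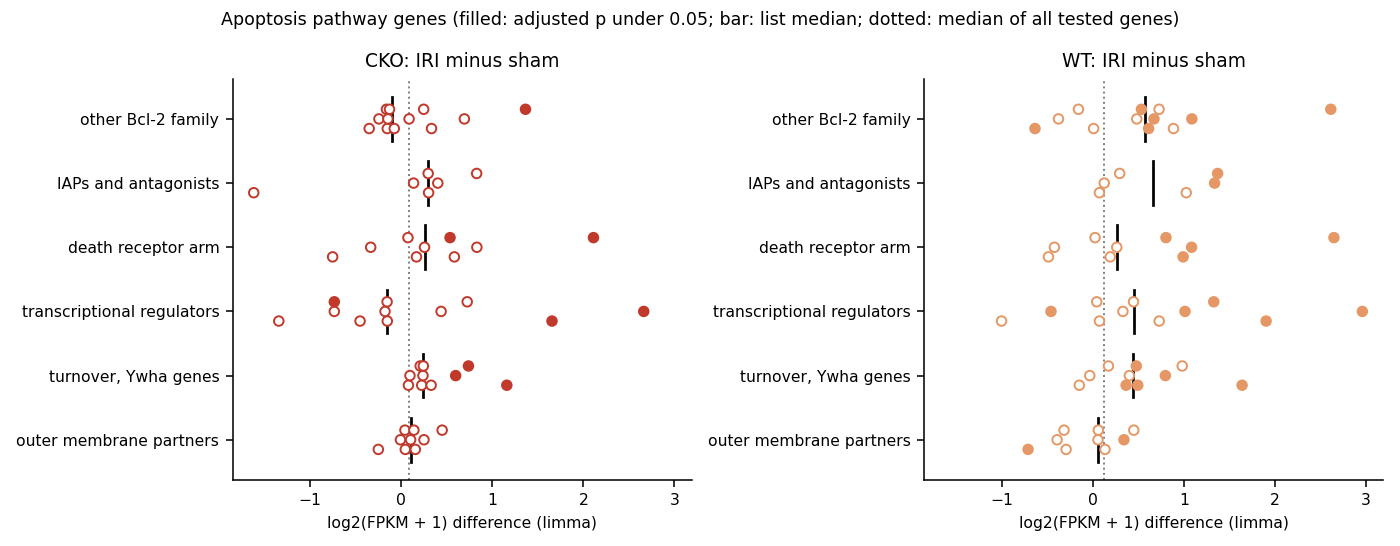
IRI minus sham difference in log2(FPKM + 1) (horizontal axis) of the tested genes of 6 apoptosis lists (rows), in CKO (left) and WT (right). Filled points passed an adjusted p under 0.05, bars are list medians and dotted lines the medians of all genes tested, 0.08 in CKO and 0.12 in WT. The highest points are Cdkn1a, at 2.66 in CKO and 2.96 in WT, in the row of transcriptional regulators, which also holds related genes.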

How the data were processed

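RNA-seq of mouse renal cortex gave 12 libraries in 4 groups of 3, grouped by the titles, genotype and treatment in the labels. The authors deposited 1 table of 25790 transcripts, read here as FPKM. Its header names no unit, and TPM, which would differ by 1 factor per library, cannot be told apart. The submitters' processing notes list HISAT2 2.1.0, StringTie and cutadapt. Those notes name a human genome build, whereas the transcript identifiers are mouse. No read counts were given, so no count test and no counting intervals were made, and transcripts with a mean under 0.5 FPKM in every group were not analysed here.

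Transcripts were matched without version to GENCODE M21 (GRCm38), 25740 in all, and summed to 13465 genes. log2(FPKM + 1) was tested with limma 3.58.1 (R 4.3.3), two-sided and with a mean-variance trend, for 12469 genes (or 20314 transcripts) with at least 1 FPKM in at least 3 libraries, with Benjamini-Hochberg adjustment over all of them and calls at 0.05. IRI against sham and the interaction shared the spread of 4 groups, and CKO against WT used the 6 libraries compared. Exact tests were permutation tests over libraries. The fits were also run on simulated normal values with few changed genes. That run does not cover a comparison with as many changes as IRI against sham in WT. Every alternative fit changed 1 choice, except 1 that left out a pair of libraries. The genes of the family, the pathway lists and the choice of fits were made with earlier results of these data known. Named pathway genes were up to 4 called genes of smallest p per list in WT and up to 2 in the other comparisons, and others were named so that each small count could be read. Equal replicate numbers do not pair WT and CKO sham libraries: the correlations of their deviations were 0.0036, -0.031 and -0.0025. Of the list genes, Sept4 and March5 were matched through older symbols. Another list of pathway genes is not reported here.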

Additional observations from a re-analysis of the deposited data

How the results depend on the processing

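The 5 calls of family members after IRI in WT came to 4 to 6 under the alternatives tried, with directions kept for all 5 genes. After IRI in CKO, where no member was called, array weights called 2 (Bak1 and Bcl2l1), leaving out WT IRI 49 and CKO sham 1 together called 1 (Bcl2l1), an alternative chosen after the data were seen, and leaving out single libraries called 0 to 1. For the interaction, also with no call, array weights called 3, the same pair of libraries left out gave 1, and single libraries left out gave 0 to 3. Member transcripts in CKO gave 0 to 1 calls when single libraries were left out. Between genotypes no member was called under any alternative, in sham or after IRI. With the replicate number as a block, the sham comparison called 0 members, and the numbers did not pair the libraries. Of the 5 tests of each single member, 1070 alternative values kept direction and call, 41 changed sign without a call on either side, 18 passed where the deposited scale with the chosen fit did not, and 6, all of Mcl1 in WT, no longer passed. A library outside a fit enters it only through the choice of tested genes. Counts for all genes moved more: 7.19% were called after IRI in CKO and 28.5% with array weights. Read depth is unknown, so the precision of low genes such as Bbc3, Bcl2 and Bcl2l11 cannot be stated beyond the spread of 3 libraries, and 3 against 3 libraries allow no exact p under 0.1.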
